A study of Homo sapiens with 9 samples.

Results

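The genes described here are 32 members of the unfolded protein response and the integrated stress response, taken by name from the 26196 gene symbols of a table of messenger RNA levels. They comprise 14 chaperones and folding factors of the endoplasmic reticulum (ER), 6 stress sensors and transcription factors, 4 genes of amino acid and glutathione metabolism linked to ATF4, 3 stress-induced regulators and 5 genes of ER-associated degradation and the ER membrane. All 32 were listed and all 32 passed the filter on low values, a mean of at least 0.5 FPKM (fragments per kilobase of transcript, scaled to depth). The RNA came from HCA2, a foreskin fibroblast line of human origin, and was measured in 3 groups of 3 libraries. Normal cells were labelled proliferative and PD-L1-positive, with nothing said about sorting. Senescent cells had received 100 nM doxorubicin, which damages DNA, for 24 hours, followed by 100 nM BI-2536, which blocks the mitotic kinase PLK1, for 12 days in all. They were measured as a PD-L1-negative and a PD-L1-positive fraction, where PD-L1 is a surface protein that restrains T cells by binding their receptor PD-1. The protocol field carries the drug treatment for every library, and normal cells are told apart by the proliferative label. All groups were 1 line, and whether replicates were separate cultures is not stated, so p-values measure the spread between these libraries.

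The ER folds secreted and membrane proteins, and misfolded protein there is sensed by the membrane proteins IRE1, PERK and ATF6, encoded by ERN1, EIF2AK3 and ATF6. IRE1 splices the XBP1 messenger RNA, and spliced XBP1 and cleaved ATF6 raise chaperones and degradation factors. PERK and related kinases phosphorylate the initiation factor eIF2, which lowers protein synthesis while translation of ATF4 goes up, and ATF4 in turn drives genes of amino acid supply and CHOP, encoded by DDIT3. Dermal fibroblasts secrete large amounts of collagen, which depends on this folding machinery. Cleavage, phosphorylation and translation are not read by messenger RNA levels, and splicing of XBP1 only as the share of its listed forms.

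Estimated depth was 11600000 to 17700000 fragments per library, and 11437 to 11891 genes reached 1 FPKM. All 10 dermal fibroblast markers averaged at least 1 FPKM, with summed levels of 8989 to 11492 FPKM in normal, 14282 to 16201 in PD-L1-negative and 12941 to 14109 in PD-L1-positive libraries. Lists of 3 other cell types also differed between senescent and normal libraries without overlap. The leukocyte list (7 genes, 1 averaging at least 1 FPKM) summed to 32.5 to 34.9 FPKM in normal and 54.1 to 67.7 in senescent libraries, nearly all of it CD68, while PTPRC, which defines leukocytes, reached at most 0.375. The melanocyte list (6 genes, 2 averaging at least 1) summed to 4.86 to 8.81 FPKM in normal and 10.9 to 12.3 in senescent libraries, mostly MITF, with TYR at most 0.119 and DCT at 0 throughout. The keratinocyte list (8 genes, 1 averaging at least 1) summed to 17.3 to 19.0 FPKM in normal and 12.3 to 16.3 in senescent libraries, mostly KRT10, with KRT5 at most 0.0305. None of 6 endothelial markers averaged 1 FPKM. The 8 proliferation markers set the normal libraries apart, with summed levels of 773, 396 and 182 FPKM in replicates 1, 2 and 3, against 42.7 to 73.8 in PD-L1-negative and 86.8 to 105 in PD-L1-positive libraries. PD-L1-positive replicate 3 had 11.9% of its FPKM in small RNA genes, and the other libraries had 0.559% to 4.74%. The part of these marker lists, of proliferation and of small RNA in the results was not tested. In bulk RNA, fewer cells with a transcript and less of it per cell cannot be told apart.

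Promoters were read first, because chaperone genes are classically raised through the ER stress response element (ERSE), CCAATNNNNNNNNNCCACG, and amino acid genes through the C/EBP-ATF response element (CARE), TGATGNAA. In RefSeq promoters of build GRCh38.p14 (250 bases before to 50 after the start site, both strands searched), 31 of 32 members matched, and PDIA3 had no entry. An ERSE was found in 6 of the 31 (19.4%), namely HSPA5, HSP90B1, CALR, CANX, CRELD2 and XBP1, against 0.0806% of 27305 promoters in all and 0.136% of the 9544 promoters of tested genes. A CARE was found in 3 (9.68%), namely ASNS, CHAC1 and HERPUD1, against 3.67% and 1.57%. Members were taken by name and chaperone genes are known for the ERSE, so its high share among them was foreseeable. No ERSE was found in SDF2L1, DNAJB11, MANF, HYOU1 or DNAJB9. Each holder of a motif is described with its levels below, and a match describes letters, not a bound site. The 250 bases before the start site are printed for the 4 ERSE holders and the CARE holder whose levels differed most between senescent and normal cells, 5′ to 3′ on the gene's strand, with the motif in capitals. In CRELD2, CALR and the second match of HSP90B1 the ERSE lies on the opposite strand and reads as its reverse complement.
CRELD2 (chr22:49918384-49918633, + strand): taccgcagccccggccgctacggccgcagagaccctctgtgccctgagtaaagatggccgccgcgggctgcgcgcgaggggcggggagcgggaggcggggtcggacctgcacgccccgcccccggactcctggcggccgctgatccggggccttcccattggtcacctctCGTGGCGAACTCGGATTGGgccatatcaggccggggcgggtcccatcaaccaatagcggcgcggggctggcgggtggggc
CALR (chr19:12938359-12938608, + strand): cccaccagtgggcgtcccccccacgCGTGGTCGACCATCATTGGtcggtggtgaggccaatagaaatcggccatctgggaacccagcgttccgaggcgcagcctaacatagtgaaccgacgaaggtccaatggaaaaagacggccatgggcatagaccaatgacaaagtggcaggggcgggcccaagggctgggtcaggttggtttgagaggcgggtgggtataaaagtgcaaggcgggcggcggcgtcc
HSP90B1 (chr12:103930160-103930409, + strand): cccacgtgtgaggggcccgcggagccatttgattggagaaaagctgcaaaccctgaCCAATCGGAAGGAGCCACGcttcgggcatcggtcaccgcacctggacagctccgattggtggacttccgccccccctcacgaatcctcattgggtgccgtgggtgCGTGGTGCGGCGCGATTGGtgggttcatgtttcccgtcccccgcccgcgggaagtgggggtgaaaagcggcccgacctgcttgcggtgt
XBP1 (chr22:28800570-28800819, - strand): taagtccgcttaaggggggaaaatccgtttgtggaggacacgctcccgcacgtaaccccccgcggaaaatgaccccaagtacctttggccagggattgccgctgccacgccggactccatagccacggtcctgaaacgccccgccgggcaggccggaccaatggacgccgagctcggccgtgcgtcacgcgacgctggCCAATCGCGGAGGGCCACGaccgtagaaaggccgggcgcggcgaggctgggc
ASNS (chr7:97872409-97872658, - strand): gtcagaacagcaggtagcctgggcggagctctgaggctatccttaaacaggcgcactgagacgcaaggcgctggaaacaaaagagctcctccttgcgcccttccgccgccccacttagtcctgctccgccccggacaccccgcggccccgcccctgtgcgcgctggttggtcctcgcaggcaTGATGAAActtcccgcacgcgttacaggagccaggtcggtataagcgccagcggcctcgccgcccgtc

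In senescent cells most ER chaperones were lower than in normal cells, whereas DNAJB9, the sensor gene ERN1, the regulator DDIT4 and the degradation genes SEL1L and WFS1 were higher. Over both fractions, limma called 13 of 32 members lower and 7 higher (adjusted p under 0.05 over 12763 genes), against 29.9% and 23.9% of all genes tested. The 6 senescent libraries all lay below the 3 normal ones for 14 members and all above for 5, against 27.3% and 21.5% of all genes. The median log2 difference was −0.22 for the members and −0.04 for all genes tested. The members moved in both directions, and the plot of single libraries shows them by role.

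**Figure D1:**
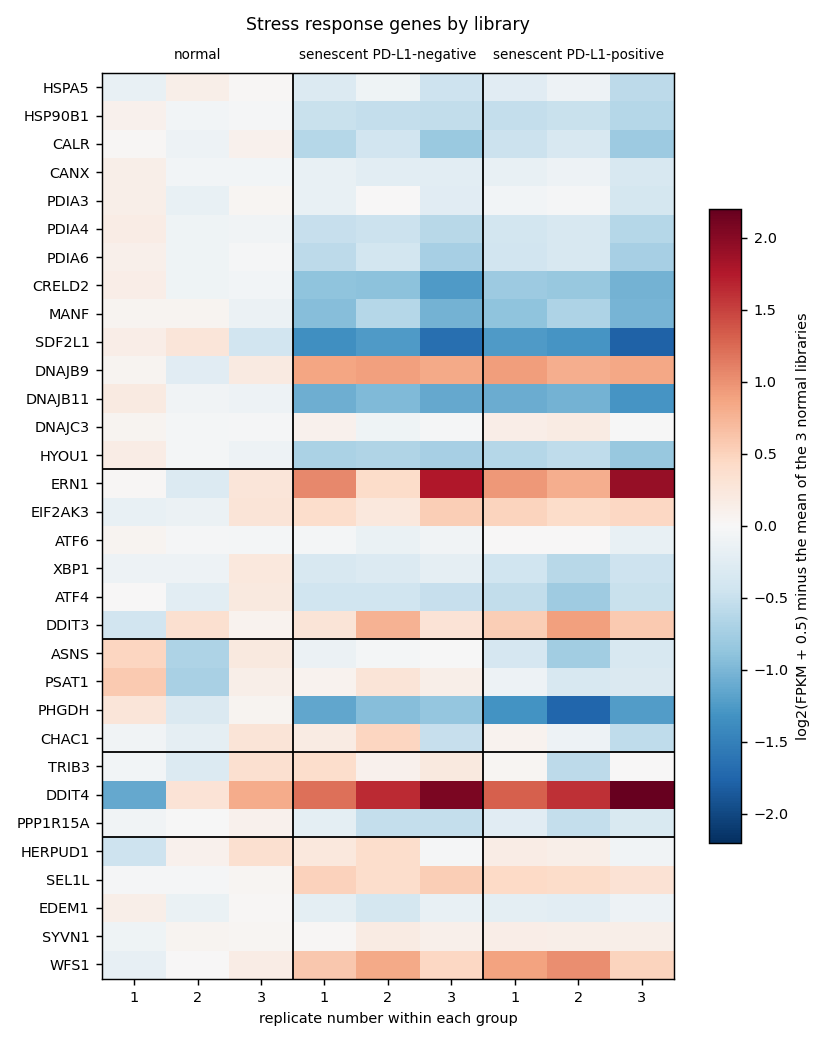
Level of each of the 32 members (rows, grouped by role) in each of the 9 libraries (columns, by replicate number), as log2(FPKM + 0.5) minus the mean of the 3 normal libraries. The chaperones SDF2L1, DNAJB11 and CRELD2 are blue in all 6 senescent libraries, DNAJB9 and DDIT4 are red in all 6, and normal replicate 2 is blue for ASNS and PSAT1.

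**Figure D2:**
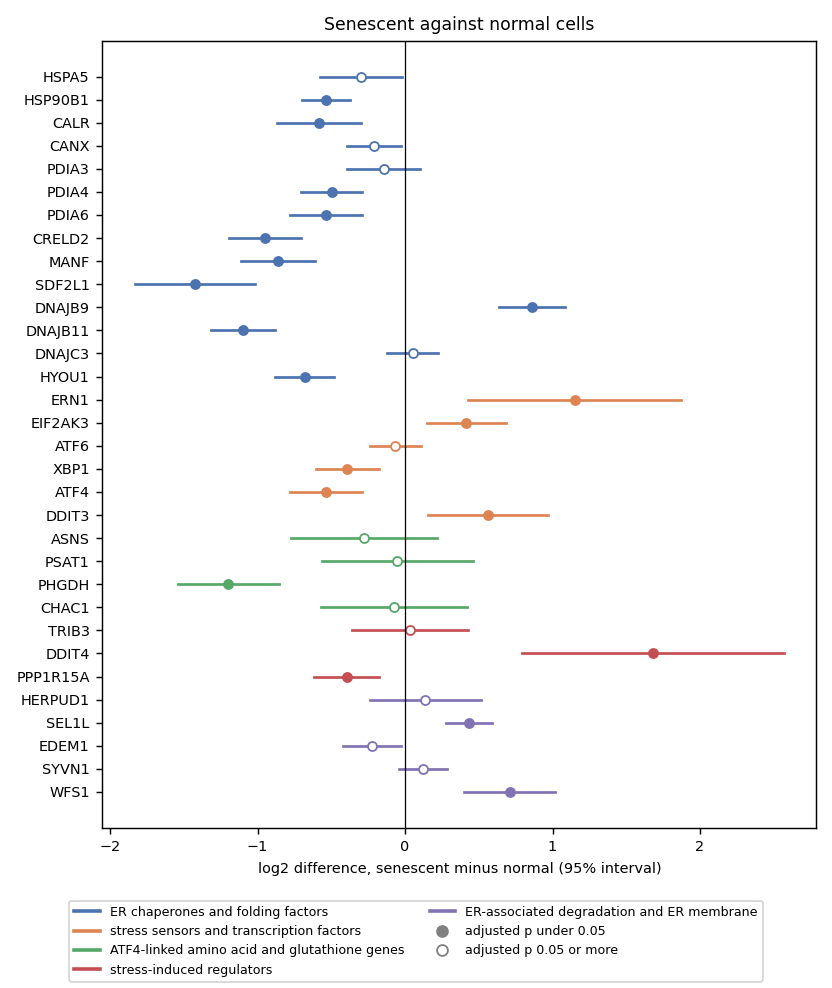
Log2 difference between senescent and normal libraries for each member (points) with its 95% interval from the limma fit (lines), coloured by role; filled points passed an adjusted p under 0.05. Of the 14 chaperones, 9 filled points lie left of 0 and 1, DNAJB9, lies right of it.

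Among the 14 chaperones and folding factors, 9 (64.3%) were lower, 1 (7.14%) was higher and 4 did not pass, with a median log2 difference of −0.54. Of all genes, 29.9% were lower and 23.9% higher. Their summed level was 3116 ± 133 FPKM (SD, n = 3) in normal, 2204 ± 194 (n = 3) in PD-L1-negative and 2248 ± 272 (n = 3) in PD-L1-positive cells. SDF2L1, an ER-resident partner of the co-chaperone DNAJB11, measured 35.4, 38.6 and 23.8 FPKM in normal, 12.3, 13.2 and 9.80 in PD-L1-negative and 13.2, 12.8 and 8.90 in PD-L1-positive libraries. Every senescent library lay below every normal one, and replicate 3 was the lowest of each group. SDF2L1 fell by 1.43 (log2; SE 0.18, adjusted p = 0.000241), a ratio of 0.359, on 89 to 581 estimated fragments per library. DNAJB11 itself, an Hsp40 co-chaperone of HSPA5, measured 82.6, 67.9 and 66.1 FPKM in normal, 33.9, 36.2 and 32.5 in PD-L1-negative and 33.6, 34.9 and 29.04 in PD-L1-positive libraries. It fell by 1.10 (log2; SE 0.10, adjusted p = 4.07e-05), and its senescent and normal libraries did not overlap.

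CRELD2, a secreted ER stress protein whose promoter is printed above, measured 43.8, 37.1 and 37.6 FPKM in normal, 21.2, 20.7 and 16.4 in PD-L1-negative and 22.4, 22.0 and 18.8 in PD-L1-positive libraries. It fell by 0.95 (SE 0.11, adjusted p = 0.000143), with no overlap of senescent and normal libraries. MANF, a secreted stress-induced factor that is held in the ER by HSPA5, fell from 91.9 ± 6.57 FPKM (n = 3) to 50.5 ± 6.21 (n = 6), a log2 difference of −0.86. HYOU1, a nucleotide exchange factor of HSPA5, fell from 59.2 ± 5.96 to 36.6 ± 2.31 FPKM, a difference of −0.68. These 5 genes had the largest differences among the chaperones that were lower.

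The abundant chaperones moved less. CALR, the lectin chaperone calreticulin, measured 1096, 995 and 1148 FPKM in normal, 696, 807 and 609 in PD-L1-negative and 776, 843 and 616 in PD-L1-positive libraries, a log2 difference of −0.58 (SE 0.13, adjusted p = 0.00401). HSP90B1, the ER form of Hsp90, measured 580.2, 519 and 535 FPKM in normal and 353 to 386 in senescent libraries with a median of 378, a difference of −0.54 (SE 0.07, adjusted p = 0.00035). Neither overlapped between senescent and normal libraries, and both promoters hold an ERSE. Of the protein disulfide isomerases, which form and rearrange disulfide bonds, PDIA6 and PDIA4 fell by 0.54 and 0.50.

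The other ERSE holders among the chaperones did not pass the test. HSPA5, which encodes BiP, the main Hsp70 of the ER and a restraint on all 3 sensors, measured 301, 369 and 342 FPKM in normal, 272, 313 and 244 in PD-L1-negative and 282, 311 and 227 in PD-L1-positive libraries. The groups overlapped, and the log2 difference was −0.30 (95% interval −0.58 to −0.02, adjusted p = 0.0661). It passed under several other settings, at an adjusted p of 0.0119 without small RNA genes and 0.00576 after quantile normalization, and also without PD-L1-negative replicate 2 (0.0401) or PD-L1-positive replicate 2 (0.0434). CANX, the membrane-bound lectin chaperone calnexin, measured 185 to 211 FPKM in normal and 151 to 179 in senescent libraries, without overlap (−0.21, adjusted p = 0.0549, and 0.0104 without small RNA genes). PDIA3, which works with CALR and CANX, had −0.15 (95% interval −0.39 to 0.10, adjusted p = 0.293, and 0.0402 without small RNA genes), and its copy PDIA3P1 was listed at 1.79 FPKM. Removing small RNA genes also moved the median of all genes in senescent minus normal cells, from −0.04 to −0.125. HSPA5 (to −0.39), CANX (to −0.30) and PDIA3 (to −0.24) moved along with that general shift. CANX also passed after quantile normalization (adjusted p = 0.0357) and with replicate number as a block (0.0499), and HSPA5 with that block (0.0303). The median of all genes was −0.006 after quantile normalization and −0.04 with the block. DNAJC3, a co-chaperone also known as an inhibitor of PERK, had 0.05 (−0.12 to 0.22, adjusted p = 0.603).

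DNAJB9 stood against the other chaperones. It encodes ERdj4, a co-chaperone known to bring HSPA5 to IRE1 and to take part in degradation. DNAJB9 measured 7.79, 6.25 and 8.61 FPKM in normal, 14.1, 14.4 and 13.8 in PD-L1-negative and 14.5, 13.4 and 13.8 in PD-L1-positive libraries. The senescent libraries lay within 13.4 to 14.5 FPKM, all above the highest normal library. The log2 difference was 0.86 (SE 0.10, adjusted p = 0.00015), a ratio of 1.86, on 295 to 603 fragments.

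**Figure D3:**
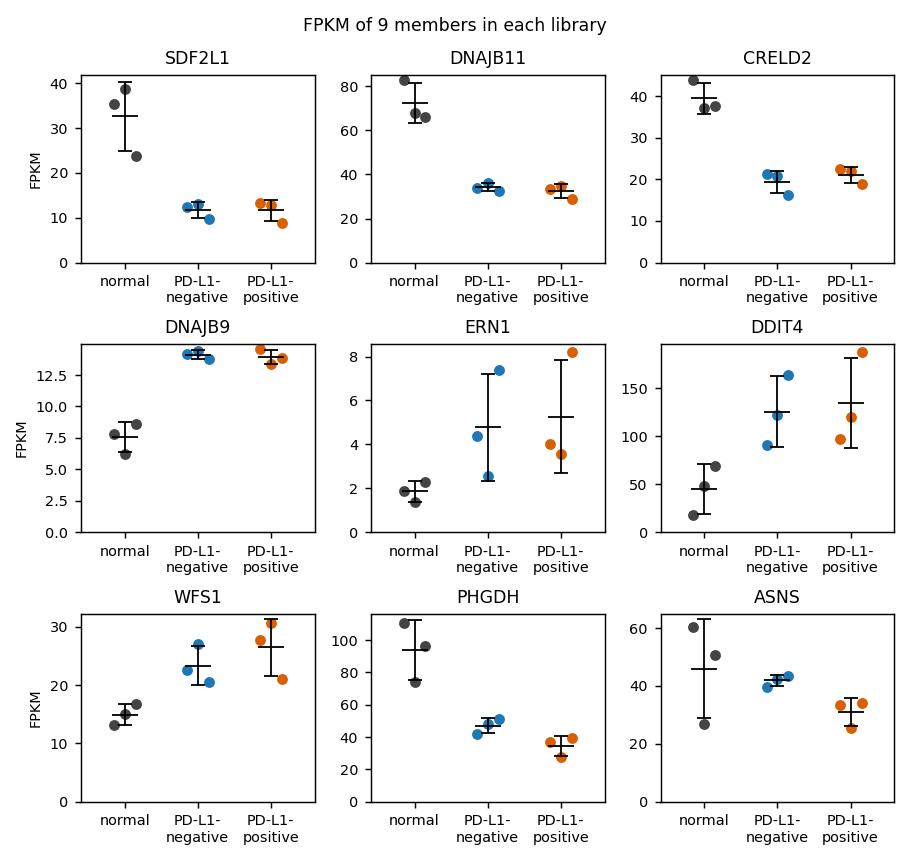
FPKM of 9 members in each library (points), with the mean (horizontal mark) and SD (bars) of the 3 libraries of each group; every axis starts at 0. The plots of SDF2L1, DNAJB11 and CRELD2 show senescent points below all normal ones, those of DNAJB9, ERN1, DDIT4 and WFS1 show them above, and PHGDH and ASNS are lower in the PD-L1-positive than in the PD-L1-negative points.

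Of the 6 sensors and transcription factors, ERN1, EIF2AK3 and DDIT3 were higher in senescent cells, ATF4 and XBP1 were lower, and ATF6 did not pass. That is 50% higher and 33.3% lower, against 23.9% and 29.9% of all genes. ERN1, which encodes IRE1, measured 1.87, 1.39 and 2.30 FPKM in normal, 4.36, 2.58 and 7.38 in PD-L1-negative and 3.998, 3.54 and 8.23 in PD-L1-positive libraries. All senescent libraries were above all normal ones, and replicate 3 was far above the other two in both fractions. ERN1 differed by 1.15 (SE 0.32, adjusted p = 0.0134), and it did not pass without normal replicate 2 (1.00, adjusted p = 0.0627). EIF2AK3, which encodes PERK, measured 5.13, 5.24 and 7.19 FPKM in normal and 6.86 to 8.65 in senescent libraries with a median of 7.98. Its ranges overlapped through normal replicate 3. EIF2AK3 differed by 0.42 (SE 0.12, adjusted p = 0.0153), and did not pass without normal replicate 1 (adjusted p = 0.0604), without normal replicate 2 (0.0738) or without small RNA genes (0.0565).

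DDIT3, the transcription factor CHOP, measured 9.14, 15.9 and 13.2 FPKM in normal, 15.3, 21.6 and 15.5 in PD-L1-negative and 18.3, 23.7 and 18.7 in PD-L1-positive libraries. Senescent and normal libraries overlapped by way of normal replicate 2. The log2 difference was 0.56 (SE 0.18, adjusted p = 0.0251), which did not pass without normal replicate 1 (0.35, adjusted p = 0.103) or without PD-L1-positive replicate 2 (0.50, adjusted p = 0.0516). DDIT3 lies over MARS1 in the annotation and was split among 6 listed transcripts, and whether the counting used strand is not given in the sources used here. ATF4, the main transcription factor of the integrated stress response, measured 339, 286 and 388 FPKM in normal, 247, 246 and 235 in PD-L1-negative and 229, 194 and 238 in PD-L1-positive libraries. Its senescent libraries were all below the normal ones, a log2 difference of −0.54 (SE 0.11, adjusted p = 0.00264). ATF6 measured 10.5 to 11.4 FPKM in normal and 9.64 to 11.0 in senescent libraries, a difference of −0.07 (95% interval −0.24 to 0.10, adjusted p = 0.483).

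XBP1, the target of IRE1 splicing and a holder of an ERSE of its own, measured 90.0, 90.0 and 114 FPKM in normal, 76.3, 79.1 and 84.5 in PD-L1-negative and 72.1, 63.3 and 71.2 in PD-L1-positive libraries. The groups of senescent and normal libraries did not overlap, and the log2 difference was −0.39 (SE 0.10, adjusted p = 0.00709). The table lists XBP1 as the transcript of the unspliced form, NM_005080, and that of the spliced form, NM_001079539. The spliced form made up 7.44%, 8.31% and 12.2% of XBP1 FPKM in normal, 9.42%, 14.1% and 16.5% in PD-L1-negative and 7.82%, 12.2% and 19.5% in PD-L1-positive libraries. In each group replicate 3 had the largest share, and the ranges overlapped. The mean share was 13.2% ± 4.36 (SD, n = 6) in senescent and 9.32% ± 2.53 (n = 3) in normal libraries, a difference that did not pass an exact two-sided permutation test (p = 0.19). That test shuffled libraries without regard to replicate number or fraction, so the rise with replicate number counts as spread in it. This share was examined after the values were seen, and how reads were divided between forms that differ by a short stretch is not given in the sources used here.

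Of the 3 stress-induced regulators, DDIT4 was higher, PPP1R15A was lower and TRIB3 did not pass. That is 33.3% in either direction, against 23.9% higher and 29.9% lower of all genes. DDIT4, an inhibitor of the growth kinase complex mTORC1 that is also induced by DNA damage and low oxygen, measured 17.6, 48.3 and 69.0 FPKM in normal, 90.4, 122 and 164 in PD-L1-negative and 97.2, 120.0 and 188 in PD-L1-positive libraries. Normal replicate 1, which had the most proliferation marker RNA, had the lowest value, and replicate 3 the highest in every group. DDIT4 rose by 1.68 (log2; SE 0.39, adjusted p = 0.00588), and by 1.12 (adjusted p = 0.011) without normal replicate 1. PPP1R15A, the regulatory subunit GADD34 that returns eIF2 to its active form, measured 77.6, 82.3 and 87.6 FPKM in normal and 57.1 to 71.0 in senescent libraries with a median of 61.2, a difference of −0.40 (SE 0.10, adjusted p = 0.00756). TRIB3, a pseudokinase that binds ATF4 and CHOP, measured 14.7 to 23.6 FPKM in normal and 12.1 to 24.1 in senescent libraries, a difference of 0.03 (95% interval −0.36 to 0.42, adjusted p = 0.894).

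Of the 4 amino acid and glutathione genes, only PHGDH passed the test, and normal replicate 2 was the lowest normal library for all 4. A share of 25% was thus called lower, against 29.9% of all genes. PHGDH, the first enzyme of serine synthesis, measured 111, 74.1 and 96.2 FPKM in normal, 41.7, 48.3 and 51.3 in PD-L1-negative and 36.8, 27.3 and 39.3 in PD-L1-positive libraries. It fell by 1.198 (SE 0.15, adjusted p = 0.000239), with no overlap between senescent and normal libraries. ASNS, asparagine synthetase, whose promoter with its CARE is printed above, measured 60.3, 27.0 and 50.7 FPKM in normal, 39.7, 42.5 and 43.5 in PD-L1-negative and 33.5, 25.4 and 34.0 in PD-L1-positive libraries. PSAT1, which follows PHGDH in serine synthesis, measured 124, 50.7 and 91.4 FPKM in normal, 87.5, 101 and 90.9 in PD-L1-negative and 76.6, 64.6 and 66.9 in PD-L1-positive libraries. For both, normal replicate 2 lay far below the other normal libraries and inside or below the senescent range. The log2 differences were −0.28 for ASNS (adjusted p = 0.311) and −0.05 for PSAT1 (adjusted p = 0.862), and without normal replicate 2 both passed, at −0.62 (adjusted p = 0.00685) and −0.41 (adjusted p = 0.0355). CHAC1, which degrades glutathione and also holds a CARE, measured 9.38 to 13.3 FPKM in normal and 7.21 to 15.2 in senescent libraries, a difference of −0.08 (95% interval −0.57 to 0.42, adjusted p = 0.793).

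Of the 5 genes of ER-associated degradation and the ER membrane, 2 (40%) were higher and none was called lower. Of all genes, 23.9% were higher and 29.9% lower. SEL1L, the adaptor of the degradation complex around the ubiquitin ligase SYVN1, measured 22.1, 22.3 and 23.3 FPKM in normal, 32.3, 29.6 and 33.2 in PD-L1-negative and 30.7, 30.0 and 28.3 in PD-L1-positive libraries. It differed by 0.43 (SE 0.07, adjusted p = 0.000787), without overlap of senescent and normal libraries. WFS1, an ER membrane protein that restrains ATF6 and takes part in calcium handling, measured 13.1, 14.99 and 16.7 FPKM in normal, 22.6, 27.0 and 20.5 in PD-L1-negative and 27.7, 30.6 and 21.1 in PD-L1-positive libraries, a difference of 0.71 (SE 0.14, adjusted p = 0.00214). Both genes were thus higher in 6 of 6 senescent libraries than in any normal one. SYVN1 itself measured 16.0 to 18.0 FPKM in normal and 17.4 to 19.5 in senescent libraries (0.12, adjusted p = 0.194), and passed after quantile normalization (0.22, adjusted p = 0.0334, and 0.24, adjusted p = 0.0477, for PD-L1-positive minus normal). SYVN1 overlaps MRPL49, at 18.5 FPKM, in the annotation. HERPUD1, a CARE holder that organises the complex, had 0.14 (95% interval −0.24 to 0.51, adjusted p = 0.515), and its normal libraries spanned 38.6 to 68.3 FPKM. EDEM1, which hands misfolded glycoproteins to degradation, had −0.22 (adjusted p = 0.0556, 0.0264 without small RNA genes and 0.0369 without normal replicate 2). Without small RNA genes the median of all genes also moved lower, as given above. EDEM1 passed as well with a filter at a mean of 2 FPKM (adjusted p = 0.049) and with replicate number as a block (0.0352).

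Each fraction was also set against the normal libraries, which both comparisons share. In PD-L1-negative cells 12 members were lower and 6 higher, against 26.6% and 21% of all genes. In PD-L1-positive cells 13 were lower and 7 higher, against 26.3% and 21.1%. The chaperones gave 9 lower and 1 higher in either comparison, with median log2 differences of −0.55 and −0.52. DDIT3 had 0.45 (adjusted p = 0.101) in PD-L1-negative and 0.67 (adjusted p = 0.0253) in PD-L1-positive cells, and XBP1 had −0.28 (adjusted p = 0.0587) and −0.50 (adjusted p = 0.00554). In PD-L1-negative cells XBP1 did pass after quantile normalization (0.0497), without small RNA genes (0.0128) and with replicate number as a block (0.0378). DDIT3 passed there with the block (0.0141). In the direct comparison of fractions DDIT3 had 0.22 (95% interval −0.25 to 0.69) and XBP1 had −0.21 (−0.46 to 0.03). Both intervals are wide and span values of either sign, so whether the fractions differ for these genes is not settled. Removing small RNA genes moved the median of all genes in PD-L1-negative minus normal from −0.05 to −0.15, and the calls over all genes from 2674 higher and 3392 lower to 2045 and 4241. The members then gave 4 higher and 16 lower. EIF2AK3 (adjusted p = 0.163) and ERN1 (0.0583) no longer passed there, and DDIT4 did not pass without PD-L1-negative replicate 3 (1.42, adjusted p = 0.0554). Single libraries also decided several calls of these 2 comparisons. In PD-L1-negative minus normal, EIF2AK3 (0.38, adjusted p = 0.0449) did not pass on leaving out normal replicate 1 or 2, PD-L1-negative replicate 1 or 3, or any PD-L1-positive library (adjusted p from 0.0598 to 0.148). ERN1 (1.08, adjusted p = 0.0376) did not pass there without normal replicate 1 (0.0703) or 2 (0.118) or without PD-L1-negative replicate 1 (0.0852) or 3 (0.128). PPP1R15A (−0.42, adjusted p = 0.0134) missed the threshold without PD-L1-negative replicate 3 (0.051), while XBP1 passed without normal replicate 1 (0.0475), DDIT3 (0.0451) and EDEM1 (0.0421) without normal replicate 2.

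In PD-L1-positive minus normal, ERN1 (1.221, adjusted p = 0.0228) did not pass without PD-L1-positive replicate 3 (0.88, adjusted p = 0.0752) or normal replicate 2 (0.0786). DDIT3 did not pass there without normal replicate 1 (0.0685) or PD-L1-positive replicate 2 (0.0912). EIF2AK3 (0.45, adjusted p = 0.0242) did not pass without normal replicate 1 or 2 or any single PD-L1-positive library (0.0547 to 0.0863). PPP1R15A (−0.37, adjusted p = 0.0232) did not pass without normal replicate 2 (0.0593) or 3 (0.0506) or PD-L1-positive replicate 2 (0.0901), and ASNS (−0.84, adjusted p = 0.00424) and PSAT1 (−0.62, adjusted p = 0.0134) passed without normal replicate 2.

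Between the PD-L1-positive and PD-L1-negative fractions, limma called 0 of 32 members and 0% of all genes. At an unadjusted p under 0.05 there were 1 member, PHGDH, and 222 of 12763 genes. The 14 chaperones were within −0.08 to 0.12 on the log2 scale, with a median of 0.00. The widest interval among them was that of SDF2L1, −0.49 to 0.44, so differences of that size are not excluded by these libraries. CALR had 0.08 (95% interval −0.25 to 0.41), HSPA5 −0.02 (−0.34 to 0.30) and DNAJB9 −0.02 (−0.28 to 0.24). DDIT4, with the largest spread, had 0.09 (−0.94 to 1.11).

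The 4 amino acid and glutathione genes were all below 0 in that comparison, with a median of −0.43. PHGDH averaged 47.1 ± 4.92 FPKM (n = 3) in PD-L1-negative and 34.5 ± 6.30 (n = 3) in PD-L1-positive cells, a log2 difference of −0.46 (95% interval −0.85 to −0.06, adjusted p = 1). ASNS averaged 41.9 ± 1.98 and 31.0 ± 4.79 FPKM (−0.44, interval −1.01 to 0.13), and PSAT1 93.1 ± 6.94 and 69.3 ± 6.34 (−0.42, interval −1.01 to 0.17). The normal libraries, whose spread also enters these intervals, had SDs of 18.5 FPKM for PHGDH, 17.1 for ASNS and 36.6 for PSAT1. The intervals are thus not a measure of the spread within the fractions alone. All 3 PD-L1-positive libraries lay below all 3 PD-L1-negative ones for these 3 genes and for TRIB3 (−0.41, interval −0.87 to 0.04) and XBP1, which makes 5 members, against 4.8% of all genes. No member had all PD-L1-positive libraries higher, against 4.62% of all genes. None of the 5 passed the adjustment over all genes. After removal of small RNA genes, all PD-L1-positive libraries were lower for 3 members, PHGDH, ASNS and PSAT1, against 2.43% of all genes. Without PD-L1-positive replicate 3, the remaining PD-L1-positive libraries were lower for 6 members, against 10.1%. In those settings the PD-L1-positive libraries were all higher for 1 and 6 members, in that order, against 7.15% and 11.4%. The summed proliferation markers were also higher in all PD-L1-positive than in all PD-L1-negative libraries, and their part in the difference was not tested.

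**Figure D4:**
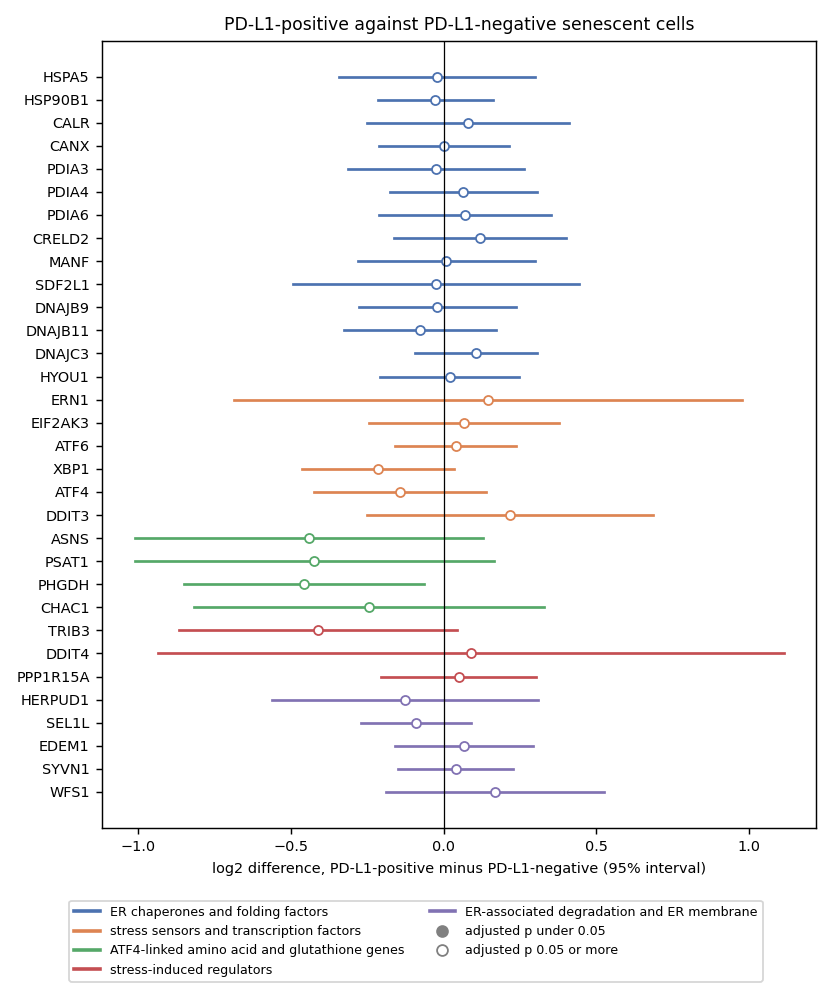
Log2 difference between PD-L1-positive and PD-L1-negative senescent libraries for each member (points) with its 95% interval (lines), coloured by role. No point is filled, the 14 chaperones lie between −0.08 and 0.12, and PHGDH is the member whose interval lies wholly below 0.

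Other genes of the pathway were listed by known role, though with earlier results of these data known, and counted in the same fit of senescent against normal cells. Of 50 other ER folding and transport genes, 14 (28%) were higher and 12 (24%) lower, near the 23.9% and 29.9% of all genes, with a median log2 difference of −0.01. In that list PDIA5, a further disulfide isomerase, rose from 25.0 ± 1.89 to 44.7 ± 5.85 FPKM (0.82, SE 0.12, adjusted p = 0.000447), and SSR4, a subunit of the translocon-associated complex, from 117 ± 6.75 to 207 ± 26.1 (0.82). SEC11C, a signal peptidase subunit, fell from 19.4 ± 6.30 to 10.3 ± 1.64 (−0.85). Of 24 other genes of ER-associated degradation that passed the filter out of 25, 9 (37.5%) were higher and 8 (33.3%) lower, with a median of 0.01. FAM8A1, a factor of the SYVN1 complex, rose from 7.15 ± 1.84 to 15.2 ± 0.703 FPKM (1.07), and ERLEC1, an ER lectin, from 33.5 ± 4.51 to 53.2 ± 3.41 (0.67). RNF5, a membrane ubiquitin ligase, was called lower and was listed at 2.13, 2.17 and 0.897 FPKM in normal, 1.04, 0.879 and 0.894 in PD-L1-negative and at 0 in all 3 PD-L1-positive libraries, so no fold is given. Of 13 other ER stress transducers out of 14, 1 (7.69%) was higher and 5 (38.5%) lower, with a median of 0.00. The higher one was MBTPS1, the site-1 protease that cleaves ATF6, at 38.8 ± 1.07 and 68.2 ± 3.79 FPKM (0.80, SE 0.07, adjusted p = 3.93e-05), while TRAF2, an adaptor of IRE1, fell from 7.48 ± 3.11 to 3.62 ± 0.42 (−0.89), and CREB3L4, an ER-bound transcription factor, fell by 0.53.

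The lists on the ATF4 side differed among themselves. Of 19 other amino acid genes linked to ATF4, 11 (57.9%) were lower and 1 (5.26%) higher, with a median of −0.57. Of all genes, 29.9% were lower and 23.9% higher. SLC7A1, a transporter of cationic amino acids, fell from 52.4 ± 13.3 FPKM (n = 3) to 17.6 ± 2.63 (n = 6), a difference of −1.53 (SE 0.17, adjusted p = 0.000121), and MTHFD2, a mitochondrial enzyme of folate metabolism, fell from 82.5 ± 20.9 to 45.2 ± 5.76 (−0.84). CTH, which makes cysteine from cystathionine, was the 1 that rose, from 1.72 ± 0.177 to 3.92 ± 0.70 FPKM (0.99). Of 20 cytosolic tRNA synthetases, which load tRNAs with amino acids, 12 (60%) were lower and 0 higher, with a median of −0.29. VARS fell by 0.99, KARS by 0.81 and FARSB by 0.72. Of 13 eIF2 kinases, phosphatases and factors, 6 (46.15%) were lower and 0 higher, with a median of −0.23. EIF2B2 and EIF2B5, subunits of the exchange factor of eIF2, fell by 0.99 and 0.65, and EIF2S1, the subunit of eIF2 that is phosphorylated, fell by 0.74.

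Other targets of ATF4 and CHOP went the other way, with 11 of 22 (50%) higher, 4 (18.2%) lower and a median of 0.71. Of all genes, 23.9% were higher and 29.9% lower. GDF15, a secreted stress cytokine that p53 also induces, measured 8.83, 15.3 and 36.7 FPKM in normal and 79.5 to 108 in senescent libraries with a median of 88.1. ATF3, a stress-induced transcription factor, measured 10.1, 22.6 and 33.1 FPKM in normal and 67.0 to 108 in senescent libraries with a median of 81.3. Neither overlapped between senescent and normal libraries, and normal replicate 1 was the lowest library for both. GDF15 rose by 2.35 (log2; SE 0.34, adjusted p = 0.000493) and ATF3 by 2.08 (SE 0.31, adjusted p = 0.000545). KLHL24 rose by 1.39. Between the fractions no gene of these lists passed. Against 4.8% of all genes, the PD-L1-positive libraries were all lower for 10 of the 20 tRNA synthetases (50%, median −0.11), 5 of the 22 other ATF4 and CHOP targets (22.7%, median −0.11), 4 of the 19 other amino acid genes (21.1%, median −0.15) and 4 of the 24 other degradation genes (16.7%, median −0.02). They were all lower for 1 of 13 eIF2 factors, 1 of 13 other transducers (7.69% each) and 0 of 50 other folding and transport genes. Without small RNA genes the tRNA synthetases gave 3 (15%, against 2.43% of all genes), and after median-of-ratios scaling 8 (40%, against 5.12%).

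**Figure D5:**
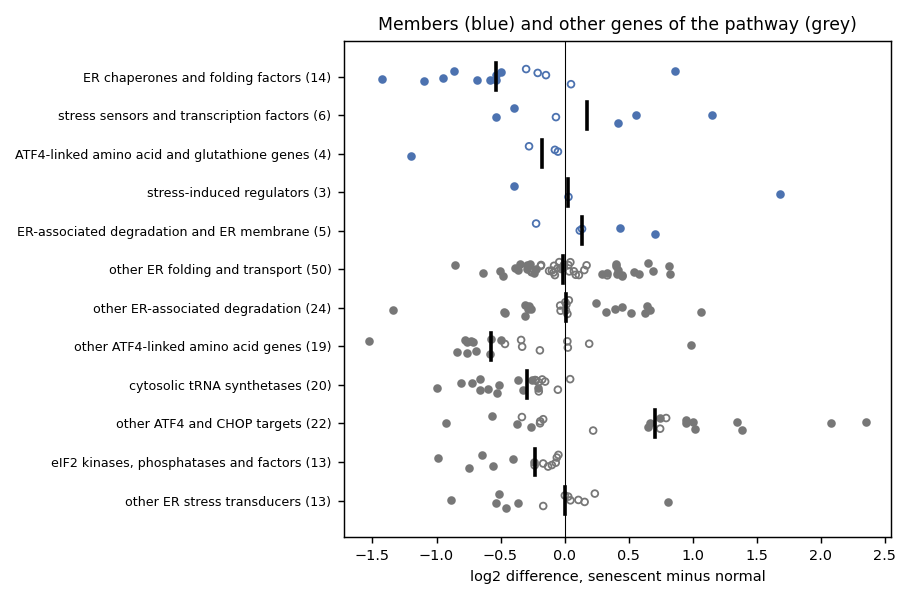
Log2 difference between senescent and normal cells (horizontal axis) for the members by role (blue) and for the lists of other pathway genes (grey), with the number of genes tested in brackets; filled points passed an adjusted p under 0.05, vertical scatter only separates points and black marks are medians. The chaperone median lies at −0.54 and that of other ER folding and transport genes at −0.01, and other ATF4 and CHOP targets have a median of 0.71 against −0.57 for other amino acid genes.

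In the authors' deposited table of motif and track enrichment, 0 of the 32 members were among the 210 genes listed as targets, a list that equals 0.802% of the gene symbols measured, so a count of 0 in 32 says little. The authors' deposited table named 44 factors, of which 0 were members.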

How the data were processed

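The authors deposited FPKM values for 52741 RefSeq transcripts in 9 libraries; per the labels' protocols, polyA RNA was made into directional libraries. The submitters' processing notes name build hg19 and the tools DESeq2 1.22.2, HTSeq 0.11.2 and STAR 2.5.2a, with no role given; the program behind the FPKM is not given in the sources used here. The authors also deposited an iRegulon table with an enrichment score per motif or track.

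Transcripts were summed per gene symbol. Depth was estimated from the smallest steps of low FPKM in 7210 genes of 1500 to 6000 bases. One fit of the 9 libraries, with 6 residual degrees of freedom and a trend on intensity, was made in limma 3.58.1 (R 4.3.3) from log2(FPKM + 0.5). Fold changes are on that scale, which understates changes of low genes. Genes averaging 0.5 FPKM or more (12763) were tested, with Benjamini-Hochberg adjustment at 0.05. The fit was checked on data with known answers. Plots were made with matplotlib 3.10.9, the permutation test with scipy 1.17.1, and tables with pandas 2.3.3 and numpy 2.4.6 in Python 3.11.15.

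All members are named; from each list of other pathway genes, the 3 with the largest difference among those called. Members, lists and tests were chosen with earlier results of these data known. Transcript copies (pseudogenes of HSPA5, HSP90B1, PDIA3, XBP1, ATF4, ASNS and PSAT1) could share reads with the members, since the handling of shared reads is not given in the sources used here. Promoters came from RefSeq at GRCh38.p14, whereas the files use hg19.

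Alternatives covered the pseudocount (0.1, 1), the filter (none, 2), median-of-ratios and quantile scaling, removal of small RNA genes, the trend, weights per group, NM transcripts only, a replicate block, only the libraries compared, an adjusted p under 0.01 and leaving out each library.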

Additional observations from a re-analysis of the deposited data

How the results depend on the processing

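No called difference of a member changed sign under any alternative run. The members' counts of calls in senescent minus normal cells were 5 to 7 higher and 13 to 16 lower when 1 library was left out, and over all genes 2482 to 3294 higher and 3171 to 3963 lower. In PD-L1-negative minus normal cells they were 3 to 6 and 11 to 13 for members, the 3 without PD-L1-negative replicate 3, and 2111 to 2962 and 2645 to 3649 for all genes. In PD-L1-positive minus normal cells they were 5 to 7 and 12 to 14, and 2087 to 2999 and 2642 to 3659. Between the fractions they were 0 to 0 for members in either direction and 0 to 3 higher and 0 to 1 lower over all genes. There 1 gene was lower with log2(FPKM + 0.1), and 1 was higher and 1 lower with no filter. At an adjusted p under 0.01, 4 members were higher in senescent cells, 2 in the PD-L1-negative and 3 in the PD-L1-positive fraction. The 13 members called lower in senescent cells all stayed under 0.01. For senescent minus normal cells the counts over all genes at 0.01 are not given here. Whether members kept their calls more often than other genes is therefore not shown. Among members called lower, ATF4 and PPP1R15A lost their call in the PD-L1-negative fraction. CALR and PPP1R15A lost theirs in the PD-L1-positive fraction. All genes then gave 1661 higher and 2139 lower in the PD-L1-negative and 1665 higher and 2069 lower in the PD-L1-positive fraction. The causes were not tested.

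Replicate numbers are not stated to pair libraries. Correlations of the deviations of same-numbered libraries were −0.01 to 0.46, and not every library correlated best with its own number. Between the fractions they were 0.09, 0.22 and 0.46 for replicates 1, 2 and 3. There each PD-L1-negative library correlated best with the PD-L1-positive library of its number. PD-L1-positive replicate 1 correlated best with PD-L1-negative replicate 2 (0.14). Whether the fractions are paired is thus not settled, and the main fit treated their libraries as separate. A replicate block gave 7 members higher and 16 lower in senescent cells, 7 and 14 in the PD-L1-negative and 7 and 14 in the PD-L1-positive fraction, and 0 and 0 between fractions. With the block all genes gave 3199 higher and 3956 lower in senescent minus normal cells, against 3044 and 3821 in the main fit. Calls thus rose over all genes as well. For the other comparisons the counts over all genes with the block are not given here. Their member counts are therefore not read as a result about the members. The normal group was the most variable, with an SD over 0.5 on the log2 scale for 1271 genes against 280 and 441, and the fit pooled these spreads. With weights per group, ERN1 did not pass in either fraction (adjusted p = 0.0821 and 0.0505) nor EIF2AK3 in PD-L1-negative cells (0.0532). Among the 31 members with an estimate (CHAC1 had none), SDF2L1, DDIT3 and ERN1 rested on the fewest fragments, at lowest 89, 155 and 190. The XBP1 share differed by 2.69 to 5.37 percentage points when 1 library was left out, an alternative added after the data were seen, as were those on overlap between the fractions.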
